A study of Mus musculus with 3 samples.

Results

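The genes described here carry the Wnt, Hedgehog, Notch and BMP/TGF-beta signals, and the question was which of them held DNA that was pulled down with an antibody against 5-hydroxymethylcytosine (5hmC), and how much 5hmC those fragments carried. Members were the protein-coding genes of GENCODE M39 whose symbol starts with Wnt, Fzd, Dvl, Notch, Bmp, Smad, Tgfb, Acvr, Axin or Ptch and goes on with a digit or letter, together with 20 named receptors, ligands and pathway components such as Lrp5, Ctnnb1, Gli2, Sufu and Jag2. The rule took in 104 of 21770 protein-coding genes. Peaks of the 3 replicates that overlapped by at least 1 bp were merged, and a merged region belonged to a gene when its midpoint lay in the gene body or within 1000 bp upstream of it. Of 13342 merged regions, 72 belonged to these genes.

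The data come from hydroxymethylated DNA immunoprecipitation (hMeDIP) of cerebellum from a C57Bl6Cr female of 8 weeks, read on nanopore flow cells, which call 5hmC, 5-methylcytosine (5mC) and unmodified C at CpG sites of the enriched fragments. Replicate 1 used a whole serum antibody and replicates 2 and 3 an IgG-purified one, so that antibody and replicate cannot be told apart. All library names point to 1 animal, and the spread between the 3 replicates is therefore technical. There was no treatment and no second genotype, and because the assay reads DNA, the tissue label could not be checked against marker genes.

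Wnt, Notch, Hedgehog and BMP signals guide the patterning of the cerebellum and the proliferation of its granule cell progenitors, and several of them act again on synapses and glia of the adult tissue. In each pathway a secreted or membrane-bound ligand binds a receptor. The signal ends at a small set of proteins that regulate transcription: β-catenin with Tcf/Lef, the Gli proteins, the cleaved Notch receptor, or the Smads. 5hmC is made from 5mC by the TET enzymes and is abundant in the gene bodies of neurons.

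The 5 stretches of 300 bases below show what such pulled-down DNA looked like. They are the forward strand of GRCm39 with each CpG in capitals, and a region is named by its gene and its number along the chromosome. Tgfbr3_4, in the first intron of Tgfbr3 at chr5:107423694-107423993, and Wnt3_1, across the end of intron 2 and the start of the coding exon 3 of Wnt3 at chr11:103701903-103702202, had a peak in 2 replicates. Smad1_4, in the first intron of Smad1 at chr8:80115890-80116189, had 5mC calls alone in replicate 1 and mostly 5hmC calls in replicate 2. Wnt9b_1, in the coding part of exon 4 of Wnt9b at chr11:103621665-103621964, carried no 5hmC call, and Wnt9a_2, in the first intron of Wnt9a at chr11:59216766-59217065, had the highest fold enrichment but no CpG. The last 3 were chosen after their values were seen.
Tgfbr3_4: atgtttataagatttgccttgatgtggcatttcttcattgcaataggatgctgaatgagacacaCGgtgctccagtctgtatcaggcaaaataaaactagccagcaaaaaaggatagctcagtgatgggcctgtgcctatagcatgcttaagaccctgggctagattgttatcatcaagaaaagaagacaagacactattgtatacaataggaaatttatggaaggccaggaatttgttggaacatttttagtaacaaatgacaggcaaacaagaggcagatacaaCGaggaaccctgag
Wnt3_1: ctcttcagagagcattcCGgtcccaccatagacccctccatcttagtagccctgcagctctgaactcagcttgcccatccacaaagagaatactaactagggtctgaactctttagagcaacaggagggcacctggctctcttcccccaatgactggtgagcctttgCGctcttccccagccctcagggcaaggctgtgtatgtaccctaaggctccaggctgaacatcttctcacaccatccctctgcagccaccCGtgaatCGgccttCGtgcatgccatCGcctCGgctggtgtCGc
Smad1_4: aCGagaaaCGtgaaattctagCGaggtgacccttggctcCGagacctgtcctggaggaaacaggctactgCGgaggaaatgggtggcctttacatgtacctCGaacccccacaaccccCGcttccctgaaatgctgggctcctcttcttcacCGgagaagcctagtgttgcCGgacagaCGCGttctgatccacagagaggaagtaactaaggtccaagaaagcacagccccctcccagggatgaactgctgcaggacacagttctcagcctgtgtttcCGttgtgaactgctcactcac
Wnt9b_1: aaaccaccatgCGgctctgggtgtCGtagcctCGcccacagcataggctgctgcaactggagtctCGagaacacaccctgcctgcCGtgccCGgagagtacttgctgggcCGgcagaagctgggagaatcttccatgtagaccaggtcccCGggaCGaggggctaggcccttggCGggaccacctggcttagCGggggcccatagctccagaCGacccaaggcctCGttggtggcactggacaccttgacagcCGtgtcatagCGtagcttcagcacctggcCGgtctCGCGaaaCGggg
Wnt9a_2: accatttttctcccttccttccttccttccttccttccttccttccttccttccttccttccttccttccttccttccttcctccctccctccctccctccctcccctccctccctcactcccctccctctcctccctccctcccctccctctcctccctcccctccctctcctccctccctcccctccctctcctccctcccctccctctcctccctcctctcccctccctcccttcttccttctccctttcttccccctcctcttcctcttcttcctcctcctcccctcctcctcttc

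In the Tgfbr3_4 stretch 2 of 7 calls were 5hmC and 5 were 5mC, and in the Wnt3_1 stretch 1 of 8 was 5hmC and 7 were 5mC. These 7 calls all lay in exon 3, which holds 6 of the 8 CpGs of the stretch. The Wnt9b_1 stretch was denser, with 19 CpGs and 64.0% G and C, and each of its 19 CpGs was called once, in replicate 3, as unmodified C. The Wnt9a_2 stretch was a run of CCTT and CCCT repeats with 62.3% G and C, and nanopore calls at CpG sites can say nothing about its modification.

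At least 1 merged region was found in 35 of the 104 genes (33.7%), beside 20.02% of all protein-coding genes. The pathway genes are longer, with a median of 37.4 kb against 19.2 kb, and per length of gene they held 10.5 regions per Mb against 9.70 per Mb. Among them were 10 genes that share a symbol prefix with a family but not its role. These took 1.49 of the 6.86 Mb and held 4 regions, or 2.69 per Mb. By pathway, without these, Wnt, Hedgehog, Notch and TGF-beta/BMP genes held 9.34, 10.4, 17.0 and 15.1 regions per Mb. By length, a region was present in 1 of 14 pathway genes under 10 kb (7.14%, all genes 6.46%), in 6 of 25 of 10 to 25 kb (24.0%, all genes 14.3%), in 9 of 24 of 25 to 50 kb (37.5%, all genes 21.4%), in 11 of 21 of 50 to 100 kb (52.4%, all genes 33.2%) and in 8 of 20 of 100 kb or more (40.0%, all genes 53.3%). The share was thus higher than in all genes between 10 and 100 kb and lower in the longest genes. That last class includes Ptchd1as, Bmper and Ptchd4, which share only a prefix with a family and held no region. No test was made of these shares, and the classes hold 14 to 25 pathway genes each.

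**Figure D1:**
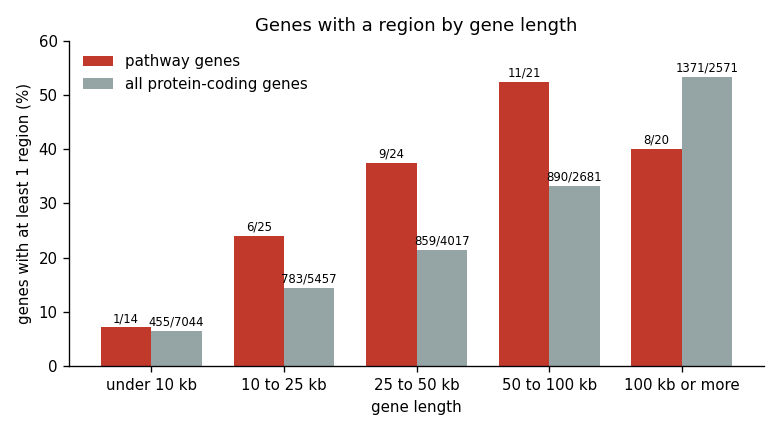
Percent of genes with at least 1 merged region (vertical axis) by gene length (horizontal axis), for the pathway genes and for all protein-coding genes, with the number of genes above each bar. In the class of 50 to 100 kb 11 of 21 pathway genes held a region, against 8 of 20 of the genes of 100 kb or more.

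Regions were few and were seldom found again. Of the 72 regions, 4 had a peak in replicate 1, 43 in replicate 2 and 29 in replicate 3, none had a peak in all 3, and 4 (5.56%) had one in 2 replicates, beside 6.00% of all merged regions. These 4 were Axin2_5, Tgfbr3_4 and Wnt3_1, each in replicates 2 and 3, and Smad7_7 in replicates 1 and 2. Replicate 2 alone decided much of the list, since without it 33 regions in 19 genes were left, and without replicate 3 there were 46 regions in 28 genes. The lists themselves held 497, 8546 and 5166 peaks in replicates 1, 2 and 3. Each peak stood on few reads. The fold enrichment is the pileup at the summit plus 1 over the local background plus 1, and its steps gave back 2 reads for 9, 3 reads for 16, 4 reads for 5 and at least 5 reads for 1 of the 43 peaks of replicate 2, with 12 that did not come out whole. In replicate 3 the numbers were 8 peaks with 2 reads, 13 with 3 and 3 with 4, and 5 of 29 did not come out whole. The regions resembled those of other protein-coding genes in size and content, with a median of 304 bp in both, 7.5 against 7 CpGs and 50.5% against 49.3% G and C.

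**Figure D2:**
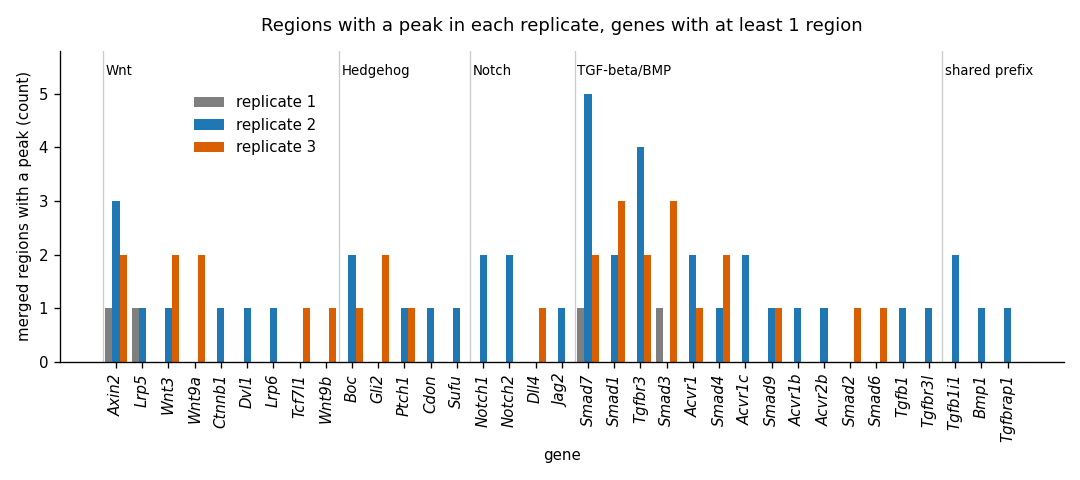
Number of merged regions with a peak (vertical axis) in replicates 1, 2 and 3 for each of the 35 genes with a region, grouped by pathway. Smad7 had 1, 5 and 2 regions in the 3 replicates, and 4 genes had a peak in replicate 1.

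Wnt ligands are secreted lipid-modified glycoproteins. Of their 19 genes 3, namely Wnt3, Wnt9a and Wnt9b, held a region (15.8%, beside 20.02% of all protein-coding genes). Wnt3_1 (chr11:103701601-103702620) had a fold enrichment of 2.87 in replicate 2 and 2.90 in replicate 3 and had 8 5hmC calls among 42 in replicate 2 and 6 among 16 in replicate 3. Replicate 1 had no call there. Over all calls 24.1% were 5hmC (95% interval 13.9 to 37.2, n = 58 calls) and 63.8% were 5mC. The region covered the coding exon 3 with intron on both sides, and 8 of 35 calls in the exon and 6 of 23 in the introns were 5hmC. Confidence intervals here are exact (Clopper-Pearson) and cover counting error only, since several calls can come from the same molecule. Wnt9a_2 had a fold enrichment of 6.36 in replicate 3, the highest of the 72 regions, and Wnt9b_1 one of 3.87. For Wnt9b_1, 0 of 19 calls were 5hmC, which allowed a share of up to 17.6%. The other Wnt9a region had 2 5hmC calls of 3.

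None of the 10 Frizzled genes, whose products are the seven-helix Wnt receptors, held a region. Most are short, with a median of 6.60 kb, and of all protein-coding genes under 10 kb 6.46% held a region. Both genes of the Lrp5 and Lrp6 co-receptors did. Lrp5_1, in intron 6 at chr19:3679452-3680622, had its peak in replicate 1 at a fold enrichment of 3.61, where 2 of 17 calls were 5hmC, and 0 of 3 were in replicate 2. Unmodified C made up 65.0% of its 20 calls. Lrp6_1 had 2 5hmC and 8 5mC calls of 10, all in replicate 2.

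Of the 7 genes of the cytoplasmic Wnt machinery, Axin2, Ctnnb1 and Dvl1 held regions (42.9%, beside 20.02% of all protein-coding genes). Apc, Axin1, Dvl2 and Dvl3 did not. Axin2 encodes a scaffold of the complex that marks β-catenin for degradation and is itself a target of the pathway, and with 5 regions in 30.4 kb it was among the 5 genes with at least 4 regions (4.81%, beside 3.53% of all protein-coding genes). Axin2_5 lay in the 3′ UTR in exon 11 at chr11:108840027-108840485, with a fold enrichment of 3.83 in replicate 2 and 3.86 in replicate 3. In replicates 1, 2 and 3 it had 3 5hmC calls of 5, 6 of 19 and 1 of 16. Over all 40 calls 25% were 5hmC and 47.5% were unmodified C. Axin2_3, in intron 9, had the highest fold enrichment of the gene, 5.50 in replicate 3, and none of its 17 calls was 5hmC, which allowed up to 19.5%. Axin2_1, upstream of the gene, held 6 CpGs and no call. Ctnnb1, which encodes β-catenin, had 1 region in its first intron with 2 5hmC calls of 9. The region of Dvl1, which relays the signal from Frizzled receptors, lay over 16 CpGs and had no call. Of the 4 Tcf/Lef factors, which bind β-catenin at target genes, Tcf7l1 alone held a region, with 0 5hmC calls of 3.

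In the Hedgehog pathway 5 of 9 genes held a region (55.6%, beside 20.02% of all protein-coding genes). The median length of these 9 genes was 74.1 kb, and 33.2% of all genes of 50 to 100 kb held a region. Of the 4 receptor and co-receptor genes, Ptch1, Boc and Cdon held 6 regions among them. Ptch1 encodes the receptor that holds Smoothened in check without ligand, and its regions lay in intron 3 (Ptch1_1, replicate 2) and in the coding part of exon 3 (Ptch1_2, replicate 3), and were joined into 1 region when gaps of up to 500 bp were bridged. Their fold enrichments were 4.79 and 4.84. The replicate with the peak gave 3 5hmC calls of 8 for Ptch1_1 and 5 of 16 for Ptch1_2, and the other replicates gave no call. Boc, a Hedgehog co-receptor, had 3 regions in its first intron with unlike 5hmC shares, which were not compared in a test. Boc_1 (chr16:44352602-44353178) had 12 5hmC calls of 18, all in replicate 3, or 66.7% (41.0 to 86.7), the highest share of the 32 regions with at least 10 calls. Its neighbour Boc_2 (chr16:44353304-44353946) had 1 of 7, 1 of 11 and 0 of 2 in replicates 1, 2 and 3, or 10.0% (1.23 to 31.7), among the lowest. Boc_3 had 7 of 30, all in replicate 2. The peak of Boc_1 stood on 2 reads, and for Boc_1 and Boc_3 region and replicate cannot be told apart. The 3 Boc regions also lay in the annotated gene Gm30064. In all, 14 of the 72 regions lay in a further annotated gene, among them Notch1_1, Tgfbr3l_1 and the upstream regions of Axin2 and Acvr2b. Cdon, a further co-receptor, had 1 region in its first intron with 3 5hmC calls of 7. Sufu, an inhibitor of the Gli factors, had 1 region with 2 5hmC calls of 5, and Gli2, the main activator among them, had 2. Gli2_1, in the coding part of exon 14, gave 11 5hmC calls of 24, all in replicate 3 (45.8%, 25.6 to 67.2). Smo, Gli1 and Gli3 held no region.

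In the Notch pathway 4 of 9 genes held a region (44.4%, beside 20.02% of all protein-coding genes). The median length of these 9 genes was 24.3 kb, and 14.3% of all genes of 10 to 25 kb held a region. Each of the 6 Notch regions had a peak in a single replicate. Of all merged regions, 6.00% had one in 2 or more. Of the receptors, Notch1 and Notch2 had 2 regions each, in replicate 2. Notch1_1, over the coding part of exon 20 at chr2:26360541-26361967, had 6 5hmC calls of 12, 3 of 9 and 0 of 3 in replicates 1, 2 and 3, or 37.5% of 24 calls (18.8 to 59.4). Each Notch2 region had a single call. Of the ligands, Jag2 had a region in intron 3 with 7 5hmC and 8 5mC calls of 15 in replicate 2, and Dll4 one in its 3′ UTR with 1 5hmC call of 9. Jag1, Dll1, Dll3, Notch3 and Notch4 held none.

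Of the 13 TGF-beta and BMP ligand genes, Tgfb1 alone (7.69%, beside 20.02% of all protein-coding genes) held a region. It lay upstream of the gene at chr7:25386017-25386320 and was called in replicate 2, with 3 5hmC calls of 29 (10.3%, 2.19 to 27.4) and 69.0% unmodified C. Of the receptor genes 6 of 13 held one (46.2%, beside 20.02% of all protein-coding genes). Their median length was 90.5 kb, and 33.2% of all genes of 50 to 100 kb held a region. Tgfbr3, the co-receptor betaglycan, had 5 regions, of which Tgfbr3_4 had a fold enrichment of 2.86 in replicate 2 and 4.83 in replicate 3 and 3 5hmC calls of 6 and 0 of 5 there. Tgfbr3_5, with a fold enrichment of 4.79 in replicate 2, had 18 5hmC calls of 33 there and 4 of 10 in replicate 3. Its pooled share of 51.2% (35.5 to 66.7), the highest of the pathway regions with at least 20 calls, stood at percentile 90.5 among the 2707 merged regions with at least 20 calls. Acvr1, a type I receptor for BMPs, had 3 regions, of which Acvr1_3 in intron 2 had 7 5hmC calls of 11, all in replicate 2. Acvr1c and Acvr1b, type I receptors for activins and related ligands, had 2 regions and 1 region with 2 to 6 calls each, and Acvr2b, an activin type II receptor, had 1 region upstream, with 2 5hmC calls of 9. Tgfbr3l, a betaglycan relative, was among the lowest, with 5 5hmC calls of 49 in the coding part of exon 3 (10.2%, 3.40 to 22.2). Bmpr1a, Bmpr1b, Bmpr2, Tgfbr1 and Tgfbr2 held no region.

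The Smads, which carry the signal from these receptors to the nucleus, held 23 regions, in all but Smad5 of the 8 genes. This was 87.5%, beside 20.02% of all protein-coding genes and 33.2% of those of 50 to 100 kb. The median length of the Smad genes was 64.4 kb. Their regions came to 46.5 per Mb, against 9.70 per Mb over all protein-coding genes. None of these differences was tested. The count rested on single libraries and on the threshold, with 15 Smad regions without replicate 2, 10 in 5 genes without replicate 3, 14 with q under 0.01 and 4 with a fold enrichment of at least 4. The TGF-beta and BMP receptor genes had 13 regions, and 3, 11, 11 and 4 under the same settings. Smad7, an inhibitory Smad, held 7 regions, Smad1, which acts after BMP receptors, held 5, as did Axin2 and Tgfbr3, and Smad3, which acts after TGF-beta and activin receptors, held 4. This order depended on single libraries and on the threshold. Without replicate 2 Smad7, Smad1 and Axin2 had 3 regions each, Tgfbr3 had 2 and Smad3 had 4, and without replicate 3 they had 5, 2, 4, 4 and 1. With q under 0.01 Tgfbr3 had 5 regions, Smad7 and Axin2 4 each, Smad1 3 and Smad3 2. Smad7_7 covered the coding part of exon 4 on chromosome 18, from 75526408 to 75527939, with a fold enrichment of 4.72 in replicate 1 and 5.74 in replicate 2. It held 52 CpGs and more calls than any other of the 72 regions, of which 21 of 43, 13 of 61 and 4 of 4 were 5hmC in replicates 1, 2 and 3. The pooled share was 35.2% (26.2 to 45.0, n = 108 calls). The other Smad7 regions lay in introns 2 and 3 and had 1 to 12 calls each. Smad3_2, in intron 8, had 5 5hmC calls of 9, 3 of 4 and 5 of 24 in replicates 1, 2 and 3, and Smad3_4, in the first intron with a fold enrichment of 5.67 in replicate 1, had 6 of 18 there and 1 of 7 in replicate 2. Smad9, another Smad of the BMP branch, had a region upstream with 6 5hmC calls of 10 in replicate 3 and one in its 3′ UTR with 6 of 15. Smad4, the partner of all signalling Smads, had 3 first-intron regions, each with 50.0% 5hmC at 4 to 6 calls. Smad2 and Smad6 had 1 region each, with 0 5hmC and mostly 5mC calls at 7 calls each.

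Smad1_4 (chr8:80115294-80116225) had its peak in replicate 3, with a fold enrichment of 3.86, and was also covered in the replicates without a peak there. Replicate 1 gave 10 calls, all 5mC, replicate 2 gave 11 5hmC calls and 2 5mC calls of 13, and replicate 3 gave 11 5hmC, 8 5mC and 5 unmodified C calls of 24. At the 8 CpGs called in all 3 replicates there were 0, 6 and 3 5hmC calls. No CpG of the region was called more than once in a replicate, so that those of replicate 1 and of replicate 2 may each come from a single molecule, and they do not show that the share differed between the replicates. Smad1_2, in the coding part of exon 2, had a fold enrichment of 5.66 in replicate 3, with 8 5hmC calls of 17 there and 0 of 4 in replicate 2. Smad1_1, Smad1_3 and Smad1_5 each had over 60% 5hmC, at 7, 6 and 11 calls in 1 replicate.

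**Figure D3:**
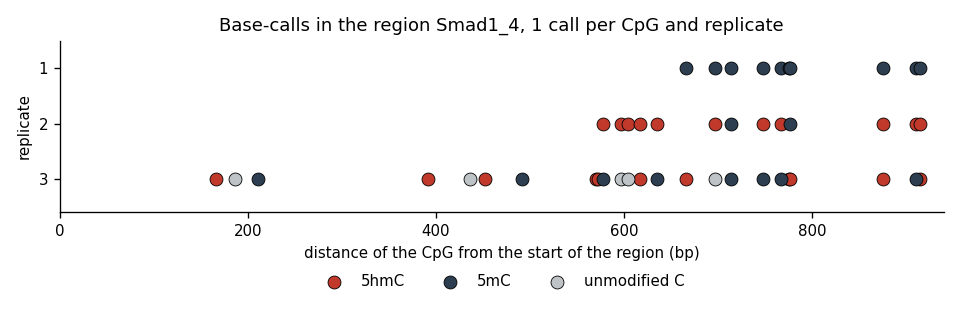
Base-calls of single CpGs in the region Smad1_4 (horizontal axis, distance from the region start in bp) in replicates 1, 2 and 3 (vertical axis), coloured by 5hmC, 5mC or unmodified C. The 10 calls of replicate 1 are all 5mC, whereas 11 of 13 in replicate 2 are 5hmC at many of the same CpGs.

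Over all regions of the 104 genes, 34.4%, 29.7% and 35.2% of base-calls were 5hmC in replicates 1, 2 and 3 (33.1% ± 3.0, SD, n = 3, from 160, 515 and 366 calls), against 30.4%, 32.4% and 31.6% in the regions of other protein-coding genes (31.5% ± 1.0). The values of the pathway genes lay on both sides of those of other genes. 5mC made up 38.7% ± 3.7 and unmodified C 28.2% ± 3.3 of their calls. Wnt genes had the lowest mean share, at 17.9%, 21.5% and 18.5% (19.3% ± 1.9), below the other protein-coding genes in each replicate, with intervals of 6.06 to 36.9, 13.7 to 31.2 and 10.8 to 28.7 around 28, 93 and 81 calls. The interval of replicate 1 took in the value of the other genes and those of replicates 2 and 3 did not. No test was made of the difference. Wnt3_1 alone gave 58 of the 202 calls, at a share of 24.1%. Of the 81 calls of replicate 3, Wnt9b_1 gave 19 and Axin2_3 gave 13, none of them 5hmC, so that this value leaned on these regions. TGF-beta and BMP genes had 38.8%, 31.2% and 41.8% (37.3% ± 5.5), and the Smads alone 38.9%, 32.4% and 44.1% (38.5% ± 5.9). In both sets replicates 1 and 3 were above the other protein-coding genes. In replicate 2 the TGF-beta and BMP genes were below them and the Smads were at the same 32.4%. Smad7_7 gave 43 of the 98 and 43 of the 90 calls of replicate 1, 21 of them 5hmC, so that these values leaned on it. The intervals of replicate 1, 29.1 to 49.2 and 28.8 to 49.7, took in the value of the other genes. Those of replicate 3, 34.6 to 49.3 and 35.9 to 52.6, did not. These differences were not tested. The Hedgehog genes had 14.3%, 25.9% and 43.1% of 7, 54 and 72 calls, and the Notch genes 35.3%, 42.9% and 25% of 17, 28 and 12 calls. These values ranged too widely, on too few calls, to give a level. The interval was 0.361 to 57.9 for the Hedgehog genes in replicate 1. For the Notch genes in replicate 3 it was 5.49 to 57.2.

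**Figure D4:**
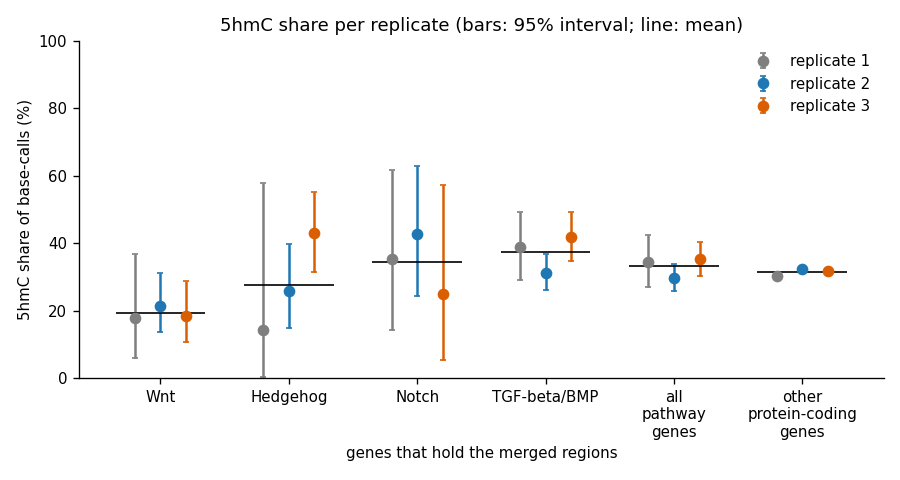
5hmC share of base-calls in percent (vertical axis) in the merged regions of each pathway, of all 104 pathway genes and of the other protein-coding genes, with 95% intervals for each replicate and the mean of the 3 replicates as a line. The Wnt points lie between 17.9% and 21.5%, below those of the other protein-coding genes at 30.4% to 32.4%.

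Single regions ranged from no 5hmC to 66.7% among the 32 with at least 10 calls, with a median of 34.2%, against 32.0% in 6051 other merged regions. 5hmC was the most frequent call in 10, 5mC in 10 and unmodified C in 8 of them (31.3%, 31.3% and 25%, against 26.0%, 42.7% and 23.1% in the other regions). Another 40 regions had fewer calls, and Axin2_1, Dvl1_1 and Wnt9a_2 had none. Each region had a peak in at least 1 replicate, and 5hmC calls were also found in replicates without one: the share was 36.3%, 29.3% and 33.9% in regions with a peak in that replicate and 32.5%, 34.1% and 39.1% (80, 44 and 92 calls) in regions without. In the regions of other protein-coding genes it was 28.0%, 32.4% and 30.9% with a peak and 31.3%, 31.6% and 34.2% without. The 5hmC share of a region could be compared between replicates in few cases, with 3, 1 and 4 of the regions tested between replicates 1 and 2, 1 and 3, and 2 and 3. Of these, Smad1_4 in the first pair passed an adjusted p of 0.05 in a Fisher's exact test per region (adjusted p = 0.014, two-sided, adjusted over 603 regions), beside 1.16%, 1.17% and 1.87% of all regions tested, and 2, 1 and 1 had an unadjusted p under 0.05, beside 10.9%, 15% and 11.4% of all regions tested. The test takes calls as independent, and as each side of Smad1_4 may be 1 molecule, its p does not show a difference in share. When 5mC was tested in place of 5hmC, Smad1_4 also passed between replicates 1 and 3. As the calls of replicate 1 may be 1 molecule, this does not show a difference either. Smad7_7 differed by 27.5 percentage points between replicates 1 and 2 (Fisher's exact test, adjusted p = 0.142). In the same exact test the differences between replicates 2 and 3 of Wnt3_1 (adjusted p = 0.660), Axin2_5 (adjusted p = 0.527) and Tgfbr3_5 (adjusted p = 0.897) did not pass either.

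**Figure D5:**
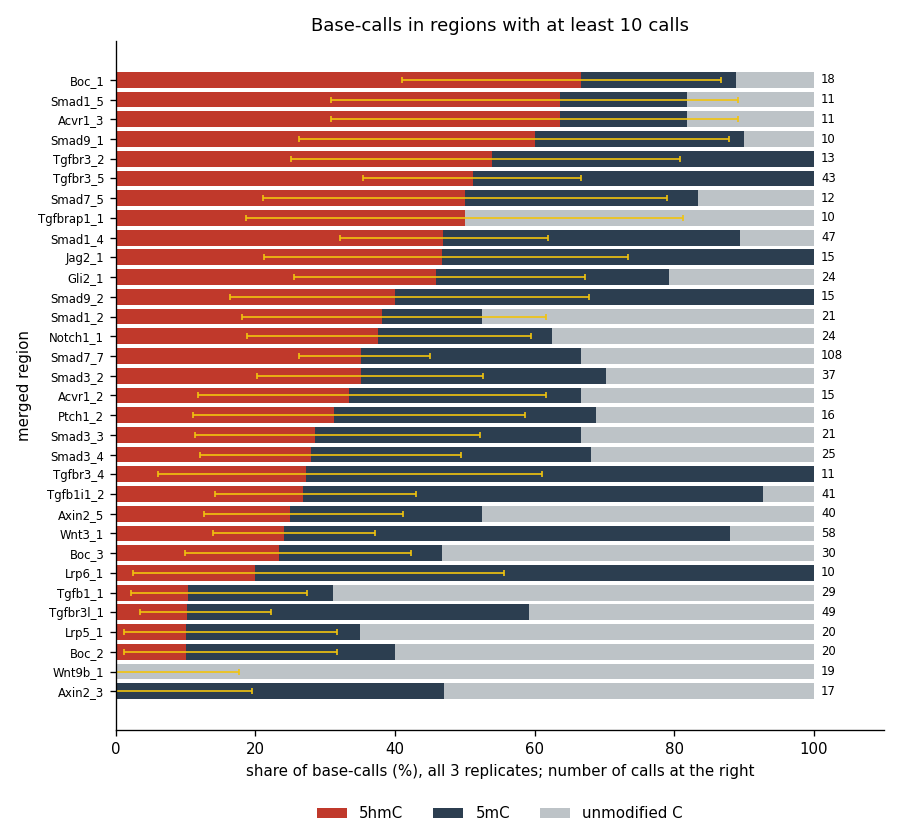
Shares of 5hmC, 5mC and unmodified C calls in percent (horizontal axis) in the 32 regions with at least 10 calls (vertical axis), pooled over the 3 replicates, with the 95% interval of the 5hmC share and the number of calls at the right. Shares of 5hmC run from 66.7% in Boc_1 to 0% in Wnt9b_1 and Axin2_3.

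By the place of their midpoint in the canonical transcript, 53 of the 72 regions were intronic (22 in a first intron and 31 in a later one), 9 lay over coding sequence, 5 over a 3′ UTR, 4 upstream and 1 outside the transcript, and none over a 5′ UTR. Of the intronic ones 4, namely Bmp1_1, Lrp5_1, Smad3_3 and Wnt3_1, also overlapped coding sequence. Coding sequence (12.5% against 8.81% of all gene and region pairs), 3′ UTRs (6.94% against 2.85%) and upstream sequence (5.56% against 2.41%) took larger parts than in all protein-coding genes, at 9, 5 and 4 regions. First-intron regions of the pathway genes had 5hmC shares of 22.5%, 43.6% and 45.1% in replicates 1, 2 and 3 and later introns 25%, 31.4% and 31.7%. Exonic regions had 47.3%, 19.3% and 29.9%, so that the order of these places was not the same in the 3 replicates. In replicate 1 the first introns, later introns and exons had 40, 44 and 74 calls. Smad1_4 gave 10 of the 40 and Smad7_7 gave 43 of the 74, so that this order leaned on single regions. The 4 upstream regions, of Acvr2b, Axin2, Smad9 and Tgfb1, had midpoints between 74 bp (Acvr2b) and 779 bp (Tgfb1) inside the limit of 1000 bp. The nearest regions left out lay 1199 bp (Tgfb1i1), 1379 bp (Tgfbr3l) and 1847 bp (Fzd3) upstream of that limit, with 2 5hmC calls of 12, 7 of 18 and 5 of 10.

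The 69 genes without a region were not all short. The 5 longest were Ptchd1as at 721 kb, Bmpr1b at 332 kb, Gli3 at 267 kb, Bmper at 262 kb and Tcf7l2 at 192 kb. With most peaks on so few reads, a missing region says only that no peak was called at this depth. Some symbols share a prefix with a family but not its role, and 3 of 10 such genes held regions: Tgfb1i1, a focal adhesion protein, with 2, Bmp1, a metalloprotease, with 1, and Tgfbrap1, a receptor-associated protein, with 1. Tgfb1i1_2, in the coding part of exon 11, had 5 5hmC calls of 10, 5 of 22 and 1 of 9 in the 3 replicates. Without all genes of this kind 68 regions in 32 genes were left.

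Further components of the same pathways, in 4 lists outside the 104 genes, held a region in 57 of 176 genes (32.4%, against 20.02% of all protein-coding genes), with 143 regions. These genes were longer, with a median of 28.8 kb against 19.15 kb, and held 13.9 regions per Mb against 9.70 per Mb. None of these differences was tested. By list, these were 30 of 61 Wnt genes, 4 of 22 Hedgehog genes, 12 of 38 Notch genes and 11 of 55 TGF-beta and BMP genes. Their 5hmC shares were 22.7%, 25.3% and 29.1% in replicates 1, 2 and 3 (25.7% ± 3.2, SD, n = 3). These lay below the 30.4%, 32.4% and 31.6% of the other protein-coding genes in each replicate, which was not tested. Gdf1 with 78 5hmC calls of 423 and Celsr2 with 77 of 415 gave many of the 2494 calls. Both had low shares, 18.4% and 18.6%, whereas Maml3, with 163 calls at 41.7%, was kept in what follows. Without Gdf1 and Celsr2, a choice made after their values were seen, the shares were 25.6%, 30.7% and 31.9% (29.4% ± 3.4). Replicates 1 and 2 were then still below the other protein-coding genes and replicate 3 was above them. By list, the mean over the replicates was 25.8% ± 4.9 in the Wnt, 29.6% ± 10.8 in the Hedgehog, 33.4% ± 5.4 in the Notch and 22.6% ± 1.4 in the TGF-beta and BMP genes. Without Gdf1 the TGF-beta and BMP list came to 26.4% ± 1.8, and without Celsr2 the Wnt list to 29.6% ± 3.0. Maml3, a Notch co-activator of 419 kb, held 20 regions with 41.7% 5hmC (34.1 to 49.7, n = 163 calls). It gave 163 of the 315 calls of the Notch list, so that the mean of that list leaned on it. The Notch list was not computed without Maml3. Ltbp2, which encodes a relative of the proteins that bind latent TGF-beta, and Ski, a repressor of Smad activity, had 7 each, and Crim1, Dtx1 and Gsk3b, the kinase that phosphorylates β-catenin, had 5 each. Peaks in 2 or more replicates were found in 2 regions each of Ski and Gdf1, a TGF-beta family ligand whose annotated gene overlaps Cers1, so that its regions cannot be assigned to one of them, and in 1 each of Dtx1, Lrp4, Btrc, Celsr2 and Ror2.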

How the data were processed

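Cerebellum DNA was enriched for 5hmC in 3 hMeDIP reactions and sequenced by the authors on MinION flow cells. They base-called with Dorado, aligned with minimap2 to mm39 (GRCm39) and called peaks with MACS2 in each replicate against untreated DNA. The deposited lists give per peak a fold enrichment (ratio), a −log10 p-value and q-value and a display score. The deposited modkit tables give, at forward-strand CpG sites within a peak of any of the 3 replicates, call counts for each state of the cytosine and percent values. Whether calls of the reverse strand were joined to them is not given in the sources used here.

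Reads at a summit were recovered from the steps of the fold enrichment, within 0.02 reads of a whole number. Replicates held 69910, 104238 and 75624 calls, and 78.0%, 66.8% and 68.9% of their CpG sites had 1 call. Shares are summed 5hmC calls over the summed calls of the 3 states. Fisher's exact tests compared replicates in every merged region with at least 10 calls in both, with Benjamini-Hochberg adjustment over all of them. All samples form 1 group. The members and lists were chosen with earlier results of these data known. The rule for names took the genes with a region in 2 or more replicates, with the most regions, with the highest fold enrichment, most calls or highest and lowest shares, and the longest without a region; the other members are given by role. Alternatives covered the assignment, the peak threshold, the merging, the minimum of calls and leaving out each replicate. matplotlib 3.10.9, pysam 0.24.0, scipy 1.17.1, pandas 2.3.3 and numpy 2.4.6 were used under Python 3.11.15, and functions were tested on simulated data. Some items are not reported here.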

Additional observations from a re-analysis of the deposited data

How the results depend on the processing

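Peaks stood on few reads and no CpG of these genes had over 5 calls in a replicate, which limits how far single values can be read. With a fold enrichment of at least 4, 13 regions in 9 genes were left, and with q under 0.01 the regions with a peak in 2 replicates fell from 4 to 2. Leaving out each replicate in turn gave 33 to 69 regions, 19 to 35 genes and a mean 5hmC share of 32.0% to 34.8%. The share was 29.3% at CpG sites with at least 3 calls (109 calls) and 70.0% with at least 5 calls (10 calls, all in 1 replicate). All regions called different between replicates numbered 7, 5 and 14 for replicates 1 and 2, 1 and 3, and 2 and 3, and 38, 22 and 45 when 5mC was tested in place of 5hmC. With at least 20 calls in both replicates 8 were called between replicates 1 and 3, without regions with a CpG of at least 20 calls 3 were, and with at least 5 calls 4 were called between replicates 2 and 3. The cause of these changes was not tested. Smad1_4 could not be tested at 20 calls. The other settings for regions, genes and the share kept within 1.5 times of the count or within 1 SD of the share. Of 350 pairs of a gene and a setting, 258 kept a count of regions within 1.5 times and 61 came to 0. No paired analysis was possible because all samples form 1 group.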
